A study of Ciona robusta with 8 samples.

Results

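Ebf, Mrf and Islet are 3 transcription factor genes of the pharyngeal muscle lineage of the sea squirt Ciona robusta, and their transcripts were followed in 8 RNA sequencing libraries of sorted trunk ventral cells. They were chosen by name for their role, with earlier results of these data known. They are 3 of the 15232 gene models counted: Ebf is model KH2013:KH.L24.10, Mrf is KH2013:KH.C14.307 and Islet is KH2013:KH.L152.2. CRISPR/Cas9 was directed by a guide RNA (gRNA) at Tcf, which encodes the nuclear factor that carries the canonical Wnt signal to DNA, or was given a control gRNA. Embryos were sampled 18 or 15 hours post fertilization (hpf). The 4 groups, each of 2 libraries, were Tcf and control gRNA at the later time and Tcf and control gRNA at the earlier one. All groups share the CRISPR/Cas9 procedure, and the labels do not give the promoter that drives Cas9, the sorting reporter, the target of the control gRNA or the share of cells mutated. The labels call the cells of all groups multipotent cardiopharyngeal progenitors.

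Trunk ventral cells are the shared progenitors of the heart and of the atrial siphon and longitudinal muscles, the pharyngeal muscles of ascidians. In Ciona their asymmetric divisions separate heart precursors from atrial siphon muscle precursors. Ebf, a factor of the Collier/Olf/EBF family, is switched on in the muscle precursors and is required for their fate. Mrf, the MyoD family factor of Ciona, acts downstream of Ebf in the muscle programme, and Islet is a LIM homeodomain factor whose vertebrate counterpart Isl1 marks the second heart field. Outside this lineage Ebf and Islet are also known from neurons and Mrf from larval tail muscle.

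Library totals ran from 6207795 to 9556959 counts. The pairing of the 3 identifiers with gene names came with the choice of the genes. It was not checked against the data, since the files hold identifiers alone, none of which was found in the name table used. Markers of trunk ventral cells, neurons, tail muscle or other cell types could therefore not be read, and neither could the level of the targeted gene. Their part in the results below was not tested. In bulk samples such as these, fewer cells of a type and less RNA per cell cannot be told apart. The labels do not say that replicates came from separate batches of embryos, so the p-values describe the spread of these libraries alone, and that spread may be technical.

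All 3 genes were higher at 18 hpf than at 15 hpf with either guide, by about the same factor for Ebf and by factors that varied more for Islet and Mrf. All 3 rises passed the test, as did rises of 5.7% of all tested models in Tcf and 7.15% in control libraries. None of the 3 passed the test for a difference between the Tcf and control guides, which 0.00835% of models passed at each time. All 3 passed the filter on low counts and were tested among 11970 models. Levels are given as CPM, counts per library total on a common scale, adjusted with trimmed mean of M-values (TMM) factors. They are not divided by gene length, so levels of different genes are not set against each other.

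Ebf, the determinant of pharyngeal muscle fate, had 525 and 500 CPM in the Tcf libraries at 18 hpf, against 109 and 114 CPM in the Tcf libraries at 15 hpf. In the control libraries it had 582 and 495 CPM at 18 hpf, against 129 and 105 CPM at 15 hpf. The lowest library of 18 hpf lay far above the highest library of 15 hpf, and at each time the ranges of the 2 guides overlapped. The counts behind these levels were 3499 to 5553 per library at 18 hpf and 767 to 824 at 15 hpf, so Ebf was well above the limit of detection at both times. By edgeR's quasi-likelihood test, Ebf rose 4.59-fold in Tcf libraries, with an adjusted p of 2.69e-06, and 4.59-fold in control libraries, with an adjusted p of 1.53e-06. On the log2 scale both changes were 2.20 with an SE of 0.14. The 95% intervals of the fold were 3.73 to 5.65 in Tcf and 3.73 to 5.66 in control libraries.

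Mrf, the MyoD family factor, had 82.6 and 69.9 CPM in the Tcf libraries at 18 hpf, against 13.7 and 17.8 CPM in the Tcf libraries at 15 hpf. Its levels in control libraries were 78.2 and 88.6 CPM at 18 hpf, against 14.9 and 26.8 CPM at 15 hpf. The times did not overlap with either guide, while the guides overlapped at both times. Mrf rose 4.84-fold in Tcf libraries (95% interval 3.25 to 7.22, adjusted p = 0.000143, edgeR) and 3.97-fold in control libraries (95% interval 2.68 to 5.87, adjusted p = 0.00028). The second value depended on the libraries of 15 hpf. Control replicate 2 at 15 hpf held 199 counts of Mrf, against 88 in control replicate 1, and without it the rise in control libraries was 5.6-fold (log2 fold change 2.49, adjusted p = 0.000107). Without control replicate 1 at 15 hpf the log2 fold change was 1.62 (adjusted p = 0.00127, edgeR).

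Islet, the LIM homeodomain factor, had 140.6 and 151.8 CPM in the Tcf libraries at 18 hpf, against 14.1 and 22.6 CPM in the Tcf libraries at 15 hpf. In control libraries the levels were 139.9 and 150 CPM at 18 hpf, against 39.3 and 24.7 CPM at 15 hpf. At 18 hpf the 4 libraries were close together. At 15 hpf both Tcf libraries lay below both control libraries, as they did for 15.2% of the tested models. Islet rose 7.96-fold in Tcf libraries (95% interval 5.43 to 11.7, adjusted p = 1.75e-05, edgeR) and 4.54-fold in control libraries (95% interval 3.15 to 6.56, adjusted p = 9.59e-05).

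**Figure D1:**
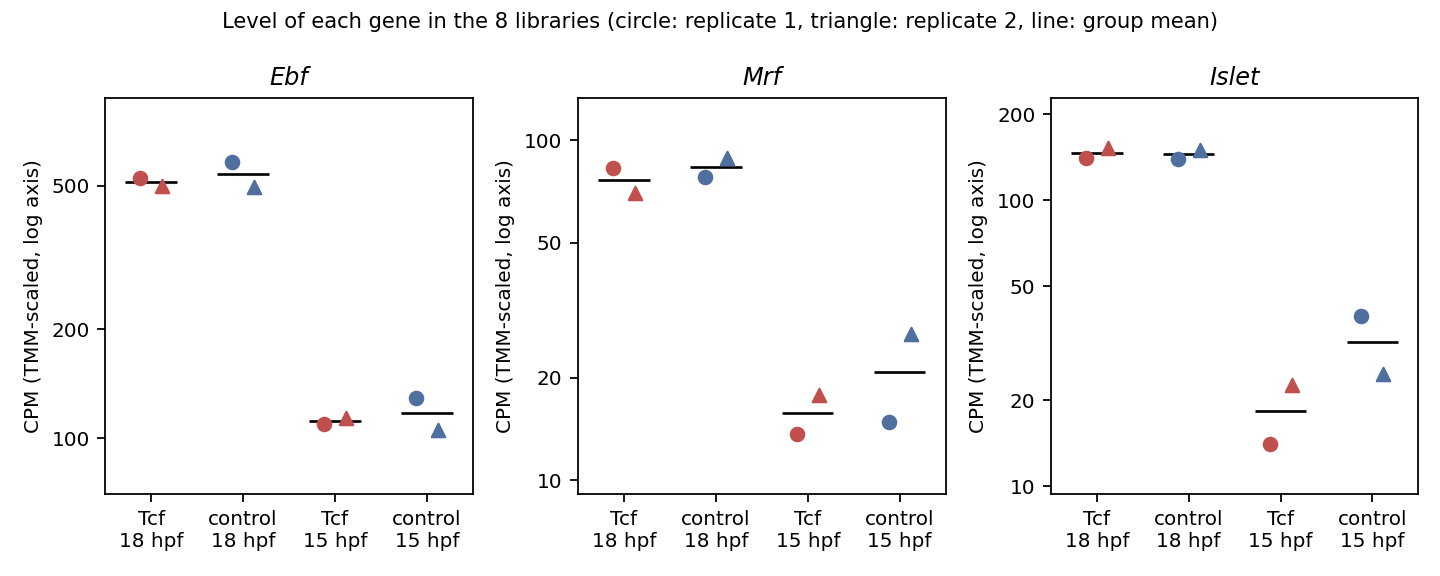
Each panel plots the TMM-scaled CPM of one gene on a log axis for the 2 libraries of each group, with the group mean as a line. Ebf, Mrf and Islet are higher in all 4 libraries of 18 hpf than in any library of 15 hpf. The guides separate only for Islet at 15 hpf (14.1 and 22.6 CPM with Tcf gRNA, 39.3 and 24.7 CPM with control gRNA). Of all tested models, 15.2% separate in this direction at 15 hpf.

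The 3 rises were read against the whole table. Models whose 18 hpf libraries both lay above both 15 hpf libraries made up 29.5% of those tested in Tcf and 28.1% in control libraries. The median log2 fold change of the 3 genes was 2.28 in Tcf libraries, against 0.04 over all tested models, and 2.18 in control libraries, against 0.02. Ebf lay above 95.8% of the tested models by its log2 fold change in Tcf libraries and above 95.1% in control libraries. For Islet these shares were 98.1% in Tcf and 95% in control libraries, and for Mrf 96% in Tcf and 94.2% in control libraries. The rises were thus large for this table but not at its extreme, since 222 models, Islet included, rose by at least as much as Islet in Tcf libraries. By the size of its p-value Ebf stood higher, with 8 models in Tcf and 14 in control libraries at or below its p, itself included.

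**Figure D2:**
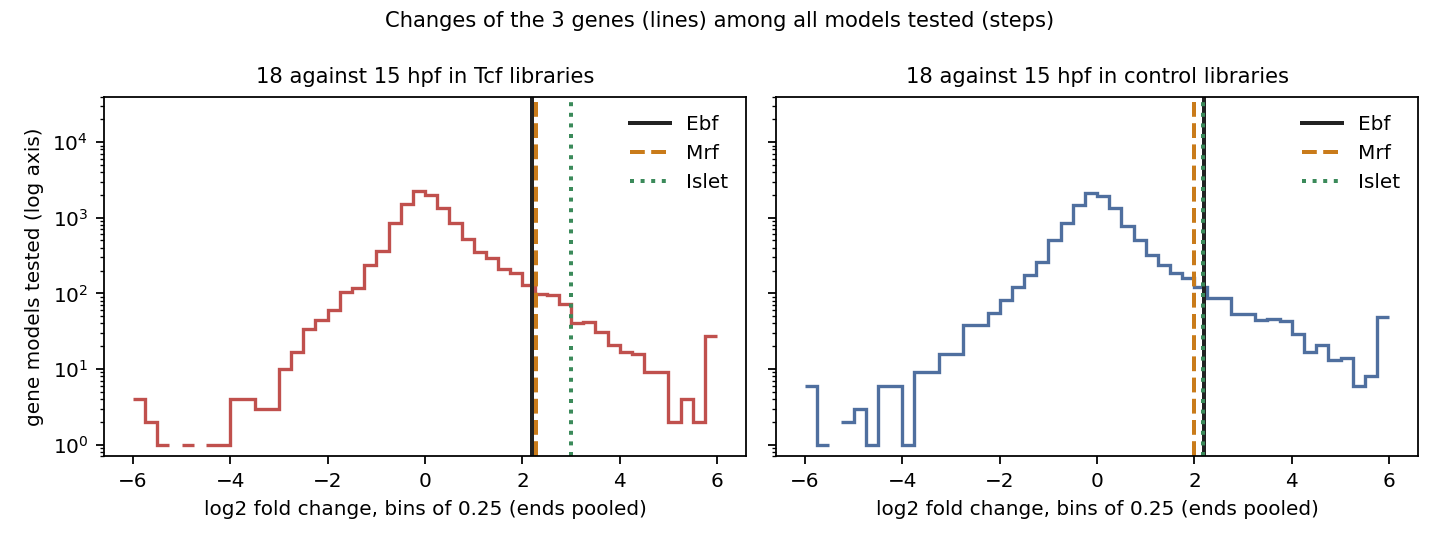
Step lines give the number of tested models, on a log axis, in bins of the log2 fold change of 18 over 15 hpf for Tcf (left) and control libraries (right), and vertical lines mark the 3 genes. Ebf sits at 2.20 on both sides, whereas Islet sits at 2.99 in Tcf and 2.18 in control libraries and Mrf at 2.28 in Tcf and 1.99 in control libraries.

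Tcf and control libraries were then compared within each time, which asks whether the pharyngeal muscle regulators depend on Tcf in these cells. At 18 hpf, 0 of the 3 genes passed the test with edgeR, DESeq2 or limma-voom, and 0 had an unadjusted p under 0.05 with edgeR, as 3.83% of all tested models had. The background was low with edgeR, which called 0.00835% of the tested models in either direction, while DESeq2 called 14 models. Ebf averaged 512 ± 17.7 CPM in Tcf and 538 ± 61.2 CPM in control libraries at 18 hpf (SD, n = 2 each, as for all means below). Mrf averaged 76.2 ± 8.97 CPM in Tcf and 83.4 ± 7.38 CPM in control libraries. Islet averaged 146 ± 7.89 CPM in Tcf and 145 ± 7.18 CPM in control libraries. The libraries of the guides overlapped for Ebf, Mrf and Islet alike. The fold of Tcf over control at 18 hpf was 0.951 for Ebf with a 95% interval of 0.78 to 1.16. It was 0.915 for Mrf (0.634 to 1.32) and 1.01 for Islet (0.717 to 1.42). These intervals are for single genes and were not widened for the number of models tested. They do not bound the change that the test could have missed, and they do not show that the guides were alike.

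At 15 hpf, 0 of the 3 genes passed the test with any of the 3 tools, again beside a background of 0.00835% of models called by edgeR, and 1, Islet, had an unadjusted p under 0.05, as had 5.05% of all tested models. Ebf averaged 112 ± 2.86 CPM in Tcf and 117 ± 17.2 CPM in control libraries (SD, n = 2 each), a fold of 0.951 with a 95% interval of 0.776 to 1.16. The upper and lower limits for Ebf were thus nearly those of 18 hpf. Mrf averaged 15.7 ± 2.90 CPM in Tcf and 20.8 ± 8.48 CPM in control libraries, a fold of 0.75 (95% interval 0.501 to 1.12, adjusted p = 0.959, edgeR). Its direction rested on control replicate 2 at 15 hpf. Without that library the log2 fold change was 0.09, against -0.42 with it.

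Islet at 15 hpf averaged 18.4 ± 6.01 CPM in Tcf and 32.0 ± 10.4 CPM in control libraries (SD, n = 2 each). The fold was 0.576, with a 95% interval of 0.395 to 0.841 that was not widened for the number of models tested (log2 fold change -0.80, SE 0.25). It did not pass the test (adjusted p = 0.953, edgeR), and its unadjusted p was 0.00808. A p this small or smaller was found for 98 models, or 0.819% of those tested. Both Tcf libraries lay below both control libraries for Islet, as they did for 15.2% of the tested models. With the libraries separated in this way, leaving out any 1 of them could not reverse the direction, so its sign is no further support. The size depended on single libraries. The log2 fold change ran from -1.16 without Tcf replicate 2 at 15 hpf to -0.43 without control replicate 1 at 15 hpf.

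Averaged over both times, 0 of the 3 genes passed the test with edgeR, DESeq2 or limma-voom, beside 0.0167% of models called by edgeR. The mean log2 fold change of Tcf over control was -0.07 for Ebf (SE 0.09), -0.27 for Mrf (SE 0.18) and -0.39 for Islet (SE 0.17, adjusted p = 1, unadjusted p = 0.0389, edgeR). The mean for Islet contains its difference at 15 hpf and is no separate result, as its log2 fold change at 18 hpf was 0.01. The median of the 3 genes was the value of Mrf, -0.27, against 0.01 over all tested models. That value of Mrf rested on control replicate 2 at 15 hpf, and without this library it was -0.02.

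The rise with time was compared between the guides by the interaction of guide and time, the rise in Tcf libraries minus the rise in control libraries on the log2 scale. For Ebf this difference was within 0.01 of 0 (SE 0.19), with a 95% interval of -0.42 to 0.42. Mrf had 0.29 (SE 0.36, 95% interval -0.50 to 1.07). For Islet it was 0.81 (SE 0.34, 95% interval 0.07 to 1.54, adjusted p = 0.989, unadjusted p = 0.0339, edgeR), a rise 1.75 times as large in Tcf as in control libraries. None of the 3 passed the test with edgeR, DESeq2 or limma-voom. Among all models edgeR called 0% and had 4.69% at an unadjusted p under 0.05, DESeq2 called 21 models and limma-voom 0. The larger fold of Islet in Tcf libraries goes with its lower values there at 15 hpf, as its levels at 18 hpf overlapped between the guides.

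**Figure D3:**
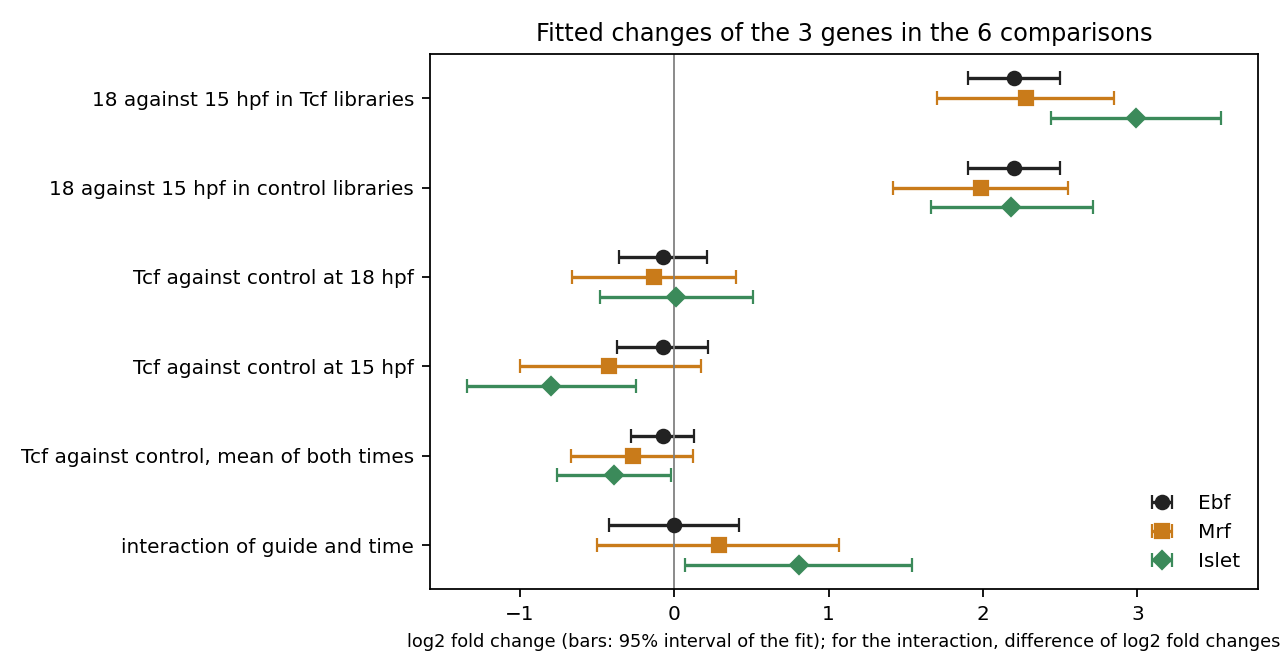
Points give the fitted log2 fold change of Ebf, Mrf and Islet in each of 6 comparisons, with bars for the 95% interval, and for the interaction the difference of 2 log2 fold changes. The intervals of the rises with time lie well above 0 for all 3 genes. Among the comparisons of guides only those of Islet at 15 hpf, as the mean of both times and in the interaction exclude 0, before any adjustment for the number of models tested. The mean and the interaction both contain the difference at 15 hpf and are not separate results, as the log2 fold change of Islet at 18 hpf was 0.01.

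The 4 groups order in the same way for Ebf and Mrf by their mean levels, with control at 18 hpf first, then Tcf at 18 hpf, control at 15 hpf and Tcf at 15 hpf. For Islet the first 2 places are exchanged. Only the step between the times exceeds the spread between replicates for Ebf and Mrf. For Islet the step from control to Tcf libraries at 15 hpf separates the libraries too, without passing the test.

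Replicates spread more at 15 hpf than at 18 hpf for Mrf and Islet, the genes with fewer counts there. The coefficient of variation of Mrf at 15 hpf was 18.5% in Tcf and 40.7% in control libraries, and at 18 hpf 11.8% in Tcf and 8.85% in control libraries. Islet had 32.8% in Tcf and 32.4% in control libraries at 15 hpf, and 5.39% in Tcf and 4.95% in control libraries at 18 hpf. Counting error alone, as 1 over the square root of the count, would give 6.55% to 10.7% for the libraries of Mrf and Islet at 15 hpf. Reads are not independent molecules here, since no molecular identifiers are described, and these figures cover counting error only. The replicates of Ebf varied by 2.57% in Tcf and 14.6% in control libraries at 15 hpf. Spreads of this size were common in the table. In control libraries at 15 hpf, 23.8% of the tested models differed between the 2 replicates by at least the 1.81-fold of Mrf, and 30.7% by at least the 1.59-fold of Islet.

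Which replicate was the higher differed between the 3 genes in some groups. In the control libraries of 15 hpf, replicate 1 was the higher for Ebf (129 against 105 CPM) and Islet (39.3 against 24.7 CPM), and the lower for Mrf (14.9 against 26.8 CPM). In the Tcf libraries of 15 hpf, replicate 2 was the higher for all 3 genes. At 18 hpf replicate 1 was the higher for Ebf and Mrf and the lower for Islet in Tcf libraries, and the higher for Ebf alone in control libraries.

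Ratios of counts between genes within a library do not depend on the scaling of libraries. Because lengths are not divided out, such a ratio can be compared between libraries but says nothing of which gene has more transcripts. The log2 ratio of Islet to Ebf was -1.90 and -1.72 in Tcf libraries and -2.06 and -1.72 in control libraries at 18 hpf. At 15 hpf it was -2.96 and -2.33 in Tcf libraries, against -1.72 and -2.09 in control libraries. The Tcf libraries of 15 hpf thus had the lowest ratios of Islet to Ebf of the 8, and the other 6 libraries lay between -2.09 and -1.72. A ratio to Ebf that was lower in both Tcf than in both control libraries at 15 hpf was found for 11.9% of 11969 models, and it was not tested for Islet. That share covers the libraries of 15 hpf only, and none was counted for the lowest places among all 8. Ebf differed little between the guides at 15 hpf (fold 0.951). The low ratio thus goes with the lower Islet values there and is no separate result.

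The log2 ratio of Mrf to Ebf was -2.67 and -2.84 in Tcf and -2.90 and -2.48 in control libraries at 18 hpf, against -3.0 and -2.68 in Tcf and -3.12 and -1.97 in control libraries at 15 hpf. All groups overlapped in this ratio, and the widest gap lay between the 2 control libraries of 15 hpf. The mean log2 ratio of Mrf to Ebf was -2.75 ± 0.12 in Tcf and -2.69 ± 0.29 in control libraries at 18 hpf, and -2.84 ± 0.23 in Tcf and -2.55 ± 0.82 in control libraries at 15 hpf (SD, n = 2 each).

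Mrf to Islet had log2 ratios of -0.77 and -1.12 in Tcf and -0.84 and -0.76 in control libraries at 18 hpf. At 15 hpf they were -0.04 and -0.35 in Tcf and -1.40 and 0.12 in control libraries. In Tcf libraries both values of 18 hpf lay below both of 15 hpf, as did the ratio to Islet of 93.1% of 11969 models, so this separation goes with the rise of Islet itself. In control libraries the 2 values of 15 hpf lay on either side of those of 18 hpf.

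**Figure D4:**
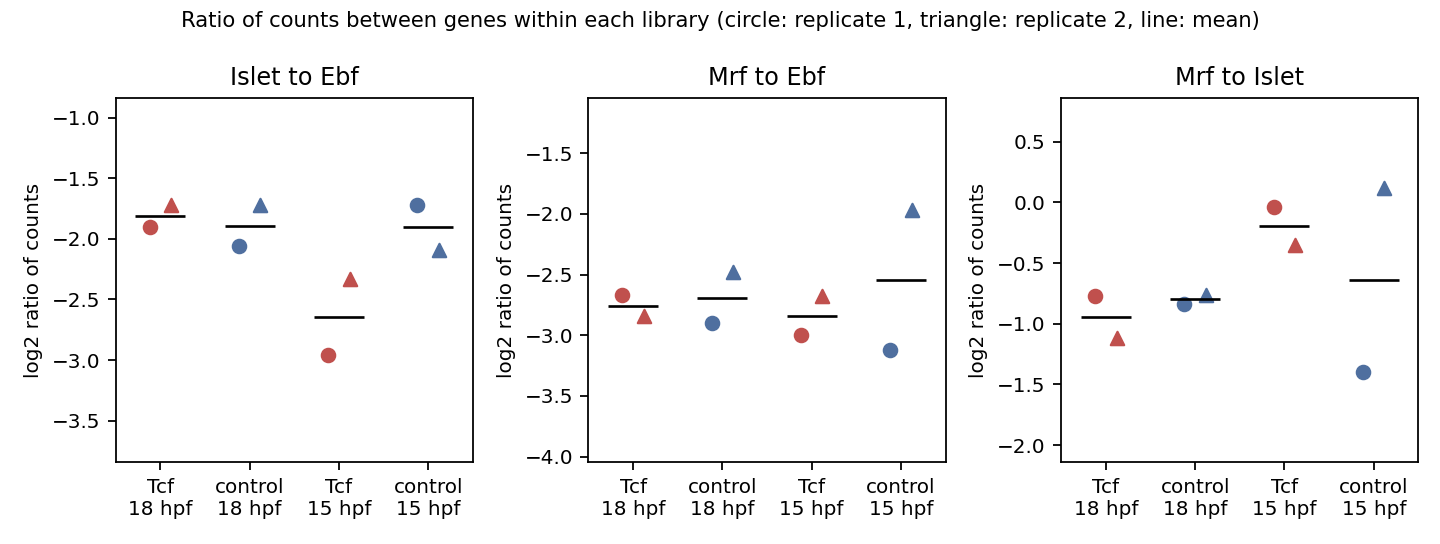
Each panel plots the log2 ratio of counts of a pair of genes in the 2 libraries of each group, with the mean as a line, on axes of equal span. The ratio of Islet to Ebf is lowest in the Tcf libraries of 15 hpf (-2.96 and -2.33), which goes with the lower Islet values there. The ratio of Mrf to Ebf overlaps in all groups.

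The profile of each gene over the 8 libraries was set beside those of all other tested models by Pearson's r of log2 CPM. The libraries fall into the 2 times, so r mostly measures a shared step between them and not the size of that step, and it is given as a description. Between the 3 genes r was 0.971 for Ebf and Islet, 0.955 for Ebf and Mrf and 0.942 for Mrf and Islet. Many other models were as close, with an r of at least 0.95 to Ebf in 291 of 11967 models, to Islet in 179 and to Mrf in 158. More alike to Ebf than Islet were 134 models, and more alike to Ebf than Mrf were 268.

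The 2 models with the highest r to Ebf were KH.C3.230 (0.996) and KH.S793.1 (0.996), and the files do not pair them with names. KH.C3.230 averaged 238 ± 19.3 CPM in Tcf and 263 ± 30.8 CPM in control libraries at 18 hpf, and 61.3 ± 0.53 CPM in Tcf and 59.0 ± 0.098 CPM in control libraries at 15 hpf (SD, n = 2 each). Its step was close in size to that of Ebf (distance of the centred log2 profiles 0.34), whereas KH.S793.1 had the same shape with a smaller step (distance 2.27). KH.S793.1 had 673 ± 12.9 CPM in Tcf and 688 ± 20.9 CPM in control libraries at 18 hpf, and 438 ± 10.96 CPM in Tcf and 458 ± 9.84 CPM in control libraries at 15 hpf.

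Most alike to Mrf were KH.C2.338 (r = 0.990, distance 0.68) and KH.C10.70 (r = 0.988, distance 0.65). KH.C2.338 averaged 36.9 ± 2.0 CPM in Tcf and 41.4 ± 1.23 CPM in control libraries at 18 hpf, against 10.6 ± 0.049 CPM in Tcf and 11.4 ± 3.28 CPM in control libraries at 15 hpf. KH.C10.70 averaged 40.9 ± 7.26 CPM in Tcf and 55.5 ± 1.15 CPM in control libraries at 18 hpf, against 12.2 ± 0.61 CPM in Tcf and 15.1 ± 6.10 CPM in control libraries at 15 hpf. Both had a wider spread in the control libraries of 15 hpf than in the Tcf libraries of that time, as Mrf had, which enters the choice by r.

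Most alike to Islet were KH.C12.409 (r = 0.998, distance 1.99) and KH.C1.200 (r = 0.993, distance 1.87). KH.C12.409 averaged 35.3 ± 0.78 CPM in Tcf and 39.5 ± 0.59 CPM in control libraries at 18 hpf, against 1.53 ± 0.76 CPM in Tcf and 3.48 ± 2.25 CPM in control libraries at 15 hpf. KH.C1.200 averaged 564 ± 45.0 CPM in Tcf and 496 ± 15.3 CPM in control libraries at 18 hpf, against 179 ± 23.0 CPM in Tcf and 237 ± 21.4 CPM in control libraries at 15 hpf. The step of KH.C12.409 was larger and that of KH.C1.200 smaller than that of Islet. Both had lower means in Tcf than in control libraries at 15 hpf, which enters the choice as well. For KH.C12.409 the spreads around these means overlapped (1.53 ± 0.76 and 3.48 ± 2.25 CPM). At levels this low its log2 profile and the size of its step also depend on the prior count.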

How the data were processed

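RNA was measured in 8 libraries of sorted cells. A sample held 200 to 800 sorted cells, per the labels' protocols, and 250 to 2000 pg of total RNA entered SMART-Seq v4 cDNA synthesis and an Ovation Ultralow library. The authors deposited whole-number counts per gene model, not normalized, made with TopHat2 2.0.12 and featureCounts per the submitters' processing notes. The sources used here give neither the build nor the strand setting nor the handling of reads with several positions. Overlapping or near-identical models could share counts. Replicate numbers are those of the titles, and per the file headers those of the 2 control libraries at 15 hpf are reversed.

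Models were kept by filterByExpr (minimum count 10 in at least 2 libraries), scaled with TMM factors and fitted as 4 group means in edgeR 4.0.16 (limma 3.58.1, R 4.3.3), with all 8 libraries sharing the estimate of spread and 4 residual degrees of freedom. Contrasts were tested by quasi-likelihood (robust setting), p-values of the 11970 tested models were adjusted by the Benjamini-Hochberg method, and a model was called below an adjusted p of 0.05. A standard error is the size of the log2 fold change over the root of its F statistic, and 95% intervals use the moderated degrees of freedom. An exact permutation test of 2 libraries against 2 cannot go below p = 0.333, so no test was made on single genes outside this fit. Profiles were compared on log2 CPM with a prior count of 2, and by rule the 2 models with the highest r to each gene were named. Alternatives were DESeq2 1.42.0, limma-voom, other size factors, no filter, fewer libraries and a replicate block. The genes, lists and tests were chosen with earlier results of these data known. Lists of pathway genes and cell type markers could not be applied without gene names, and no sequence or coordinate was used.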

Additional observations from a re-analysis of the deposited data

How the results depend on the processing

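Of 90 refits of the rises of the 3 genes, those by tool, size factors, filter and block kept each call. Leaving out a library could not reverse a rise, as the times did not overlap. The largest fold shift was 1.41 times, for Mrf in control libraries without control replicate 2 at 15 hpf. In the 174 refits of the comparisons of guides and of the interaction, 0 calls were made for the 3 genes. The direction changed in 12. The largest of these reversed values was the interaction of Mrf, at -0.23 without control replicate 2 at 15 hpf, against 0.29 with all libraries. The log2 fold change of Islet at 18 hpf was -0.0015 with DESeq2, and the interaction of Ebf was 0.00011 with DESeq2's size factors in edgeR. Leaving out single libraries gave log2 fold changes of -0.21 to 0.08 for Ebf and -0.78 to 0.09 for Mrf at 15 hpf, -0.22 to 0.04 for Ebf and -0.05 to 0.07 for Islet at 18 hpf, and interactions of -0.16 to 0.13 for Ebf and -0.23 to 0.64 for Mrf. Among these, Ebf was at 0.08 without control replicate 1 at 15 hpf, and its interaction at 0.11 without control replicate 1 at 18 hpf, and at 0.01 and 0.02 when Tcf replicate 2 of 15 or of 18 hpf was left out. Each such fit leaves a group with a lone library, which is assumed to vary like the other groups.

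The number of models called, the background of the counts above, depended more on the setting. At 15 hpf edgeR called 1 model between the guides, against 22 with DESeq2, 4 with limma-voom, 4 without the filter and 2 with only the libraries of the groups compared. At 18 hpf it called 1, against 14 with DESeq2 and 0 with only the libraries compared. For the mean of both times it called 2, against 15 with DESeq2, 1 with limma-voom and 4 without the filter, and for the interaction 0, against 21 with DESeq2 and 1 without the filter. Without single libraries the calls ran from 1 to 19 at 15 hpf, 0 to 6 at 18 hpf, 1 to 11 for the mean and 0 to 7 for the interaction. For the change with time they ran from 687 to 1475 in Tcf libraries, against 1325 with all, and from 931 to 1535 in control libraries, against 1557.

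Deviations of same-numbered libraries correlated between -0.17 and 0.06 across genes, so no strong shared deviation was seen. This check cannot show whether same-numbered libraries were prepared together. With the numbers of the titles as a replicate block, 1153 models were called for time in Tcf and 1385 in control libraries, and the calls of the 3 genes were as without the block. With the numbers of the file names the block gave 2 calls at 15 hpf. With the numbers of the control libraries at 18 hpf crossed, a choice made after seeing the data, it gave 4 calls between guides at 15 hpf and 1 at 18 hpf.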
